A study of Mus musculus with 8 samples.

Results

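The receptors that myeloid cells use to bind the Fc part of IgG were followed across 4 groups of mouse immature myeloid cells (IMCs). The set was chosen by symbol and held 6 of the 24062 genes in the count table: the activating receptors Fcgr1, Fcgr3 and Fcgr4, the inhibitory receptor Fcgr2b, the signalling chain Fcer1g, and Fcgrt, the heavy chain of the neonatal Fc receptor. All 6 passed the filter on low counts, which left 13197 genes for testing. The IMCs were grown from the bone marrow of C57BL/6 mice aged 2 months, for 3 days with 40 ng/mL M-CSF, the cytokine that drives monocyte and macrophage growth. Mice of the PARP1 WT group were PARP1 flox/flox, and PARP1CKO mice carried in addition lysozyme-Cre, a recombinase driven by a promoter active in the myeloid lineage. The PARP2 WT and PARP2CKO groups were built likewise on PARP2 flox/flox, so that both WT groups carried floxed alleles and lacked Cre. In the study these libraries served to find genes that depend on either enzyme, with littermates as the controls. Each group had 2 libraries of total RNA, so that p-values measure the spread between these libraries only.

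Activating Fc gamma receptors bind antibody-coated particles and signal through a shared chain, the product of Fcer1g. That chain carries an activation motif (ITAM) which Src family kinases phosphorylate and the kinase Syk then binds. Fcgr2b carries an inhibitory motif (ITIM) instead, recruits the phosphatase encoded by Inpp5d and raises the threshold for activation. Fcgrt pairs with beta-2 microglobulin (B2m), returns internalised IgG to the cell surface and does not use the shared chain. Macrophages are known to express all of these genes.

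Fcgr2b, Fcgr4, Fcgr3 and Fcer1g lie together within 275.7 kb of chromosome 1, whereas Fcgr1 lies on chromosome 3 and Fcgrt on chromosome 7 (GENCODE M21, GRCm38, the build called mm10 in the study). Fcgr2b spans chr1:170958617-170976547 on the minus strand, Fcgr4 chr1:171018920-171029761 on the plus strand, Fcgr3 chr1:171051174-171064935 on the minus strand and Fcer1g chr1:171229572-171234365 on the minus strand. Fcgr1 spans chr3:96282909-96293969 and Fcgrt chr7:45092990-45103851, both on the minus strand. No other gene of the count table overlapped an exon of the 6 genes.

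Fcgr2b and Fcgr3 encode receptors with opposite effects whose IgG-binding part is nearly the same, and these are the stretches in which a read cannot be assigned to either gene. Reads were 75 bases long, and 94 of the 1733 possible read positions of Fcgr3 transcripts (5.42%) matched Fcgr2b exactly, while these were 1.63% of the positions of Fcgr2b. The shared positions came from the following 2 identical runs of coding sequence, shown in the direction of transcription. The first run, of 129 bases, crosses from exon 3 to exon 4 and reads from chr1:170967980-170968081 and chr1:170966674-170966700 in Fcgr2b and from chr1:171057691-171057792 and chr1:171054167-171054193 in Fcgr3. The second, of 113 bases, lies in exon 4 at chr1:170966560-170966672 in Fcgr2b and chr1:171054053-171054165 in Fcgr3.
Fcgr2b and Fcgr3, first run: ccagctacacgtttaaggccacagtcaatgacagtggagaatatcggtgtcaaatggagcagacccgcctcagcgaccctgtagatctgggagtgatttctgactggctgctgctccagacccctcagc
Fcgr2b and Fcgr3, second run: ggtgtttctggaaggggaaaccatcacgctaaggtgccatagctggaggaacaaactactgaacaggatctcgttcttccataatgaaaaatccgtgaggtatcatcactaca
Including repeats in its long exons, 5.43% of the Fcgr2b positions matched some other gene. The positions of Fcgr1, Fcgr4, Fcer1g and Fcgrt matched no other gene, with 0 shared positions each.

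The regions just before the transcription start were examined for short motifs, and 3 of them are shown because they hold the core motif of PU.1, the factor that directs myeloid gene expression. The search covered both strands of the 250 bases before and 50 after each RefSeq start (GRCm38.p6). It used GAGGAA for the PU.1 core, TTCNNNGAA for the element activated by interferon-gamma, TTGCNNAA for the C/EBP core, and the letters of the TATA box. All 6 genes had an entry, and Fcgr3 had 2. The sequences are 120 bases that end at the base before the start, read in the direction of the gene. Capitals mark TTCCTC, which is GAGGAA on the opposite strand, and in Fcgr1 also TTCCCAGAA, a match to TTCNNNGAA.
Fcgr1, chr3:96293970-96294089, minus strand: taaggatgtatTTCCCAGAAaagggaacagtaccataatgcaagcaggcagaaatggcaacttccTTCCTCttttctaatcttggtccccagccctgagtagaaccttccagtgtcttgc
Fcgr3, chr1:171059404-171059523, minus strand: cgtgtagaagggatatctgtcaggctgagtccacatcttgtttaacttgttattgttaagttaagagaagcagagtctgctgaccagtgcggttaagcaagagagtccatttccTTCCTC
Fcgr4, chr1:171018806-171018925, plus strand: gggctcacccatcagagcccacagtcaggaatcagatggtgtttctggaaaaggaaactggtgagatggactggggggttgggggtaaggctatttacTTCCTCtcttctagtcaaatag
The PU.1 core thus stood within 55 bases before the start in each activating receptor, and GAGGAA was not among the letters of the windows of Fcgr2b, Fcer1g and Fcgrt. Of 32851 RefSeq promoter windows of the same length, 28.3% hold GAGGAA and 8.3% hold TTCNNNGAA. These shares are for the whole window of 300 bases, and no share was counted for the 55 bases before the start. Other forms of the PU.1 motif were not searched, so the windows without GAGGAA may hold one. TTGCNNAA, found in 10.8% of all windows, was in those of Fcgr3 and Fcgrt. The TATA box was searched as TATAAA, found in 13.6% of all windows and in none of those of the 6 genes. These matches describe letters and not binding.

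Library totals ran from 37852450 to 61845125 counts on genes. The targeted genes followed the labels: Parp1 had 202 and 211 CPM (counts per 1000000 of the library total, scaled by TMM factors) in PARP1 WT, against 63.2 and 59.1 CPM in PARP1CKO, and Parp2 had 48.2 and 48.3 CPM in PARP2 WT, against 25.7 and 25.6 CPM in PARP2CKO. Parp1 was lower in PARP2 WT replicate 2, at 155 CPM, than in replicate 1, at 251.3 CPM. Defining myeloid markers were high in all 8 libraries, with Csf1r, the M-CSF receptor, at 1134 to 1273 CPM, Itgam, which encodes CD11b, at 881 to 1035 CPM and the granulocyte gene S100a8 at 314 to 454 CPM. The neutrophil and macrophage markers Ly6g and Adgre1 were not found under these symbols. Markers of T and NK cells summed to 2.12 to 3.47 CPM, and the T cell gene Cd3e had 0 to 6 counts. RNA came from whole cultures, so fewer cells of a type and less RNA per cell cannot be told apart.

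The signalling chain was by far the most abundant of these transcripts and the levels of the receptors differed widely. Per kilobase of exon, Fcer1g averaged 955 CPM (879.8 to 1030.2 over the 8 libraries) and ranked 23rd of 12525 tested genes with a known length. Fcgr3, the low-affinity activating receptor, averaged 237 CPM per kilobase and ranked 157th. Together they stood in the top 1.25% of genes.

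The other receptors were an order of magnitude lower. Fcgr1, the high-affinity receptor, averaged 23.9 CPM per kilobase (21.7 to 26.9), and Fcgr4, the receptor for IgG2 subclasses, 15.5 (12.7 to 17.4). Fcgr2b averaged 6.96 (5.49 to 11.2) and Fcgrt 4.24 (3.59 to 4.84), so that the ranges of neighbours in this order did not overlap. The place of Fcgr2b depends on the length used: over its principal transcript, which is shorter than its merged exons, it averaged 11.4 CPM per kilobase with a range of 8.97 to 18.3, which overlaps that of Fcgr4.

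**Figure D1:**
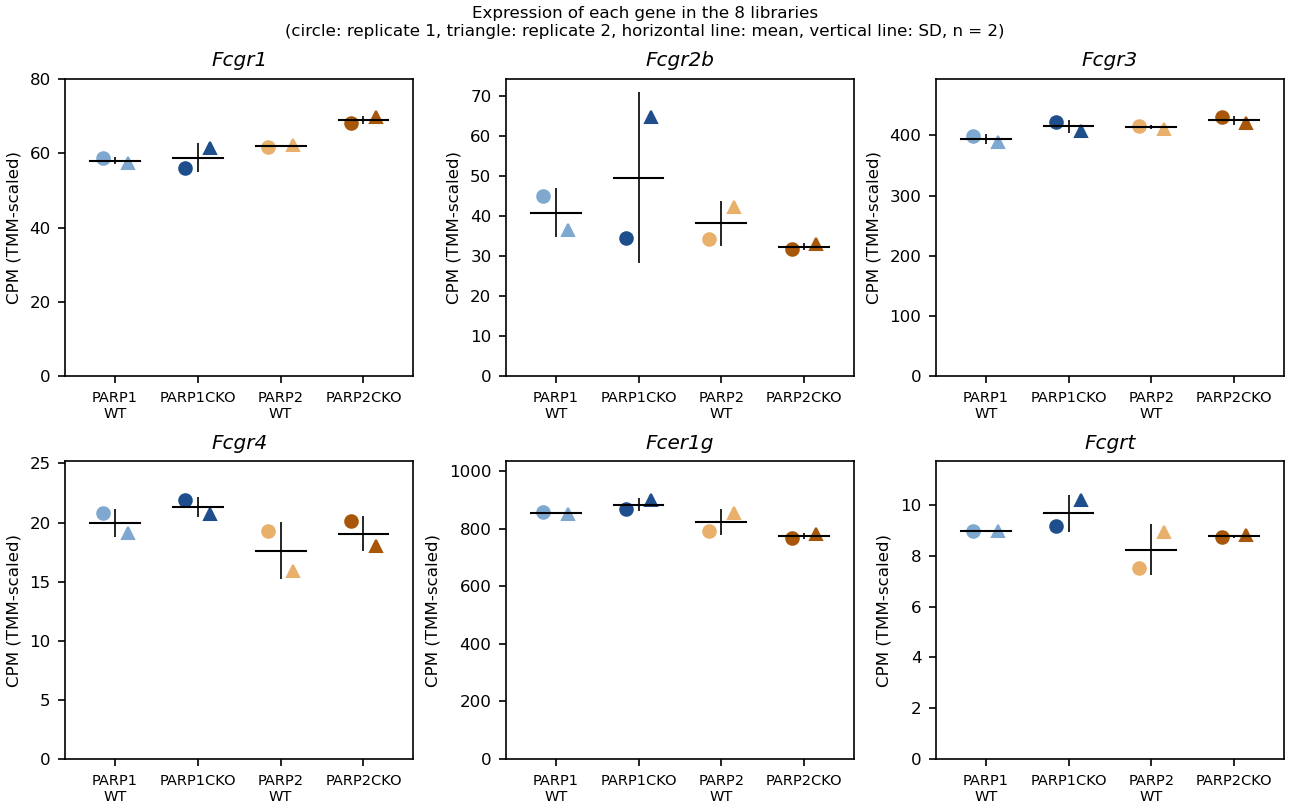
TMM-scaled CPM of each gene (vertical axes, from 0) in the 8 libraries, by group, with circles for replicate 1, triangles for replicate 2, horizontal lines for the mean and vertical lines for the SD (n = 2). Fcgr3 lies between 388 and 430 CPM in all libraries, both PARP2CKO libraries of Fcgr1 lie above all others, and Fcgr2b stands at 64.7 CPM in PARP1CKO replicate 2 against 31.8 to 45.2 CPM elsewhere.

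None of the 6 genes passed the test in either knockout, by the quasi-likelihood test of edgeR with p-values adjusted over all genes (Benjamini-Hochberg). In PARP1CKO against PARP1 WT, 0 of 6 passed an adjusted p of 0.05, as did 0.106% of all genes, and 0 of 6 had an unadjusted p under 0.05, against 11.3% of all genes. Without PARP1CKO replicate 1 it was 1 of 6, Fcgr2b. In PARP2CKO against PARP2 WT, again 0 of 6 passed, where 0.053% of all genes did, and 1 of 6, Fcgr1, had an unadjusted p under 0.05, against 4.83% of all genes. That number was 0 of 6 without PARP2CKO replicate 2. It was 2 of 6 without PARP2 WT replicate 1, namely Fcgr4 and Fcer1g in place of Fcgr1, and 2 of 6, Fcgr1 and Fcgr2b, in a fit of the 4 PARP2 libraries alone. The genes called in all depended on single libraries. In the PARP1 line they numbered 14, against 3 without PARP1 WT replicate 1, 1 without PARP1 WT replicate 2, 34 without PARP1CKO replicate 1 and 7 without PARP1CKO replicate 2. In the PARP2 line they numbered 7, against 19 without PARP2 WT replicate 1, 14 without PARP2 WT replicate 2, 11 without PARP2CKO replicate 2 and 4 with either PARP1 WT library left out. DESeq2 and edgeR's likelihood-ratio test also called 0 of 6 in both comparisons. Libraries of the compared groups did not overlap for 3 of 6 genes in the PARP1 line, where this held for 41.2% of all genes, and for 4 of 6 in the PARP2 line, where it held for 37.2%. All 6 genes had a higher fitted level in PARP1CKO (median log2 fold change 0.09, beside 0.01 over all genes tested), but only 4 of 6 without PARP1CKO replicate 2 (median 0.02) and 5 of 6 without PARP1 WT replicate 2 (median 0.05). In PARP2CKO 4 of 6 were higher, at a median of 0.06, and 3 of 6 with either PARP2 WT library left out (median 0.01). The intervals below rest on 1 estimate of spread per gene over all 8 libraries. Their widths thus also hold the spread within groups outside a comparison.

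**Figure D2:**
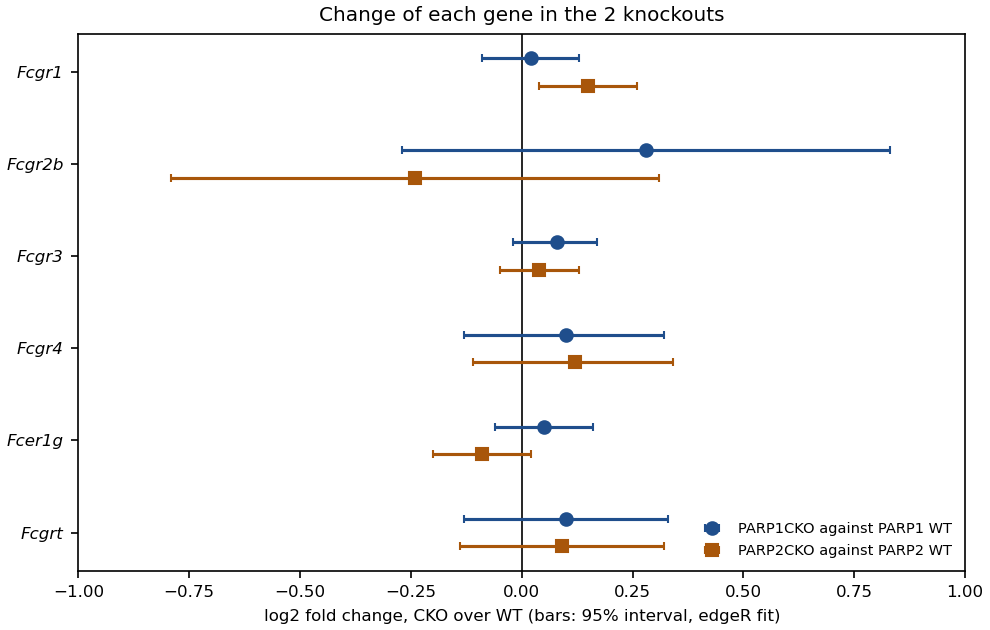
Log2 fold change of CKO over WT (horizontal axis) for each gene, with circles for PARP1CKO, squares for PARP2CKO and bars for the 95% interval of the edgeR fit. All intervals include 0 except that of Fcgr1 in PARP2CKO, from 0.04 to 0.26, and those of Fcgr2b are the widest.

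Fcgr1 encodes the receptor that binds single IgG molecules. It had 58.7 and 57.3 CPM in PARP1 WT, against 56.1 and 61.5 CPM in PARP1CKO, and 61.7 and 62.2 CPM in PARP2 WT, against 68.2 and 69.6 CPM in PARP2CKO. Both PARP2CKO libraries were higher than the other 6, and the other groups lay close together, with those of the PARP1 line overlapping. The log2 fold change was 0.02 (95% interval -0.09 to 0.13) in PARP1CKO, and -0.05 without PARP1CKO replicate 2. In PARP2CKO it was 0.15 (SE 0.0483, interval 0.04 to 0.26), a level 11.2% higher, with an unadjusted p of 0.0116 and an adjusted p of 0.888 by edgeR's quasi-likelihood test. Over the alternative settings that adjusted p ran from 0.444 to 1.0. The difference between the knockout effects was 0.13 on the log2 scale (interval -0.02 to 0.29, edgeR adjusted p = 0.686), and 0.07 without PARP1CKO replicate 1 and 0.20 without replicate 2.

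Fcgr3 encodes the receptor for immune complexes that is shared by macrophages, neutrophils and NK cells. It had 399 and 388 CPM in PARP1 WT, against 422 and 408 CPM in PARP1CKO. In the PARP2 line it had 416 and 411 CPM in WT and 430 and 419.9 CPM in CKO. Both libraries of each knockout lay above both of their controls, by little. The log2 fold change was 0.08 (interval -0.02 to 0.17) in PARP1CKO and 0.04 (-0.05 to 0.13) in PARP2CKO, so that neither interval reaches above a level 12.4% higher. In PARP2CKO it was 0.02 without PARP2CKO replicate 1 and 0.01 with scaling by library size alone. The highest library of Fcgr3 was 1.11 times its lowest, the smallest range of the 6 genes.

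Fcgr4, the activating receptor of monocytes, macrophages and neutrophils, had 20.8 and 19.1 CPM in PARP1 WT, against 21.9 and 20.7 CPM in PARP1CKO. It had 19.3 and 15.9 CPM in PARP2 WT, against 20.1 and 18.0 CPM in PARP2CKO. The groups overlapped in both lines. The log2 fold change was 0.10 (interval -0.13 to 0.32) in PARP1CKO, and 0.03 without PARP1 WT replicate 2 and 0.05 without PARP1CKO replicate 1. In PARP2CKO it was 0.12 (-0.11 to 0.34) and became -0.01 without PARP2 WT replicate 2, the lowest library, and 0.26 without PARP2 WT replicate 1.

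Fcgr2b, the only inhibitory receptor of the family, varied most. It had 45.2 and 36.6 CPM in PARP1 WT, against 34.5 and 64.7 CPM in PARP1CKO, and 34.3 and 42.3 CPM in PARP2 WT, against 31.8 and 33.0 CPM in PARP2CKO. A single library, PARP1CKO replicate 2, was high, and the replicates of that group lay apart by 0.91 on the log2 scale. Of the 8673 genes with a mean of at least 10 CPM, 11 (0.127%) had a larger gap between the PARP1CKO replicates. The log2 fold change was 0.28 in PARP1CKO (SE 0.242, interval -0.27 to 0.83, edgeR adjusted p = 0.684). It turned to -0.24 without PARP1CKO replicate 2 and was 0.66 without replicate 1, with edgeR adjusted p of 0.609 and 0.13. In PARP2CKO it was -0.24 (interval -0.79 to 0.31, edgeR adjusted p = 0.968), with both PARP2CKO libraries below both controls, and came to -0.08 without PARP2 WT replicate 2 and -0.38 without replicate 1. The SE of Fcgr2b in PARP2CKO was 0.244, against 0.0937 in a fit of the 4 PARP2 libraries alone, where the log2 fold change was also -0.24. The wide interval in PARP2CKO thus does not show the spread of the PARP2 libraries alone. The difference between the effects was -0.52 (interval -1.30 to 0.26) and came to 0.0034 without PARP1CKO replicate 2.

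PARP1CKO replicate 2 was highest not in Fcgr2b alone but in the summed level of 7 of the 17 gene lists examined: interferon response, Fcgrt partner and antigen handling, and the markers of B cells, of T and NK cells, of mast cells and basophils, of osteoclasts and of erythroid cells. In some lists the lead was small. Mast cell and basophil markers were at 60.1 CPM against 59.3 CPM in PARP1 WT replicate 1. Osteoclast markers were at 150.1 CPM against 146.0 CPM in PARP2CKO replicate 1, and T and NK cell markers at 3.47 CPM against 3.27 CPM in PARP2 WT replicate 2. The share of all genes that were highest in PARP1CKO replicate 2 is not given here. Fcgr2b is the Fc gamma receptor of B cells, which gives the B cell list its place here. The 13 interferon response genes summed to 237 and 168 CPM in PARP1 WT, against 213 and 345 CPM in PARP1CKO, and 154 and 161 CPM in PARP2 WT, against 117 and 142 CPM in PARP2CKO. All 13 had a higher fitted level in PARP1CKO (median log2 fold change 0.55) and all 13 a lower one in PARP2CKO (median -0.31). None was called in either comparison, and 3 and 0 had an unadjusted p under 0.05. Stat2, an interferon signalling factor, had log2 fold changes of 0.27 in PARP1CKO (edgeR unadjusted p = 0.023) and -0.20 in PARP2CKO (edgeR unadjusted p = 0.0766). Irf7, an interferon-induced factor, had 21.7 and 14.7 CPM in PARP1 WT, against 20.3 and 32.9 CPM in PARP1CKO, and Usp18, which dampens interferon signalling, differed by -0.53 in PARP2CKO (edgeR unadjusted p = 0.117).

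The 7 of 8 B cell markers in the table summed to 43.7 and 37.3 CPM in PARP1 WT, against 39.2 and 55.2 CPM in PARP1CKO, and 19.4 and 17.6 CPM in PARP2 WT, against 18.3 and 21.8 CPM in PARP2CKO. The summed level was thus lower in all libraries of the PARP2 line, whereas its Fcgr2b levels of 31.8 to 42.3 CPM overlapped those of the PARP1 line. Not every marker followed the sum. Cd22, an inhibitory lectin of B cells, had 8.02 to 11.9 CPM in the PARP1 line and 7.96 to 10.8 CPM in the PARP2 line, where it was at 8.18 and 7.96 CPM in WT and 9.96 and 10.8 CPM in CKO (log2 fold change 0.36, edgeR unadjusted p = 0.0319, adjusted p = 0.954). All 7 were higher in PARP1CKO (median 0.27) and 3 in PARP2CKO (median -0.12). None was called, and 0 and 1 had an unadjusted p under 0.05. The part of interferon response or of B cell RNA in the Fcgr2b values was not tested.

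**Figure D3:**
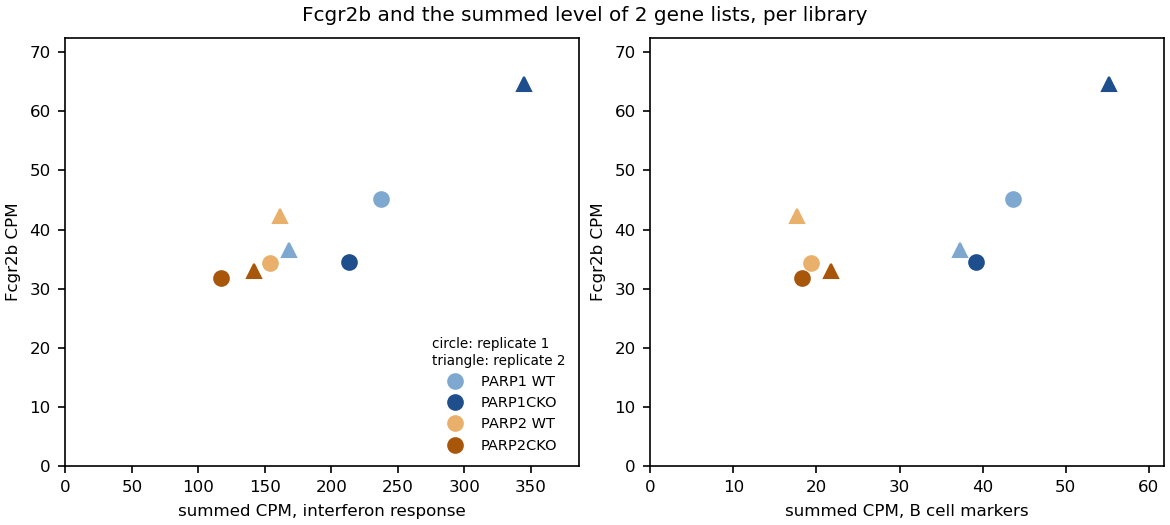
Fcgr2b in CPM (vertical axes) against the summed CPM of the 13 interferon response genes (left) and of 7 B cell markers (right), 1 point per library, coloured by group, with circles for replicate 1 and triangles for replicate 2. PARP1CKO replicate 2 is highest on all axes, with 64.7 CPM of Fcgr2b, 345 CPM of interferon response genes and 55.2 CPM of B cell markers.

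Fcer1g, the ITAM chain on which the surface level of the activating receptors depends, had 858 and 852 CPM in PARP1 WT, against 869 and 900.4 CPM in PARP1CKO. It had 793 and 856 CPM in PARP2 WT, against 769 and 782 CPM in PARP2CKO. Both PARP1CKO libraries were above and both PARP2CKO libraries below their controls. The log2 fold change was 0.05 (interval -0.06 to 0.16) in PARP1CKO and -0.09 (interval -0.20 to 0.02) in PARP2CKO, where it was -0.03 without PARP2 WT replicate 2 and -0.14 without replicate 1. The effects differed by -0.14 (interval -0.29 to 0.02, edgeR adjusted p = 0.684). The chain also serves the IgE receptor of mast cells and basophils. Markers of those cells summed to 35.1 and 31.8 CPM in PARP2 WT, against 25.4 and 25.8 CPM in PARP2CKO, beside 55.1 to 60.1 CPM in the PARP1 line. All 8 were lower in PARP2CKO (median -0.36), 3 of them with an unadjusted p under 0.05 and none called, and 5 of 8 were lower in PARP1CKO (median -0.01). Their part in the Fcer1g values was not tested. Hdc, the enzyme that makes histamine, had 5.53 and 0.98 CPM in PARP2 WT, against 0.805 and 0.87 CPM in PARP2CKO.

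Fcgrt was the least abundant of the genes, with 348 to 521 counts a library where Fcer1g had 33199 to 45870. It had 8.99 CPM in both PARP1 WT libraries, 9.16 and 10.2 CPM in PARP1CKO, and 7.54 and 8.96 CPM in PARP2 WT, against 8.73 and 8.82 CPM in PARP2CKO. PARP1CKO lay above its controls and the groups of the PARP2 line overlapped. The log2 fold change was 0.10 (interval -0.13 to 0.33) in PARP1CKO, where it was 0.18 without replicate 1 and 0.03 without replicate 2. In PARP2CKO it was 0.09 (interval -0.14 to 0.32) and became -0.03 without PARP2 WT replicate 1. Its partner B2m had 992 and 937 CPM in PARP2 WT, against 877 and 891 CPM in PARP2CKO (log2 fold change -0.13, edgeR unadjusted p = 0.0289, adjusted p = 0.954). It had 1224.1 to 1317.5 CPM in the PARP1 line, and B2m was called between the WT groups (log2 difference of PARP2 WT from PARP1 WT -0.36, edgeR adjusted p = 0.00703). Of the 5 genes for the Fcgrt partner and antigen handling, 4 were higher in PARP1CKO (median 0.05), where B2m differed by 0.05 (edgeR unadjusted p = 0.304), and 3 in PARP2CKO (median 0.04). None was called, and 1 in each had an unadjusted p under 0.05. Tapbp, a peptide-loading chaperone, differed by 0.12 in PARP1CKO (edgeR unadjusted p = 0.048) and Rab11a, a GTPase of recycling vesicles, by 0.10 in PARP2CKO (edgeR unadjusted p = 0.0643).

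The knockout effects themselves were compared for each gene. By edgeR's quasi-likelihood test of the difference, 0 of 6 genes passed, as did 0.0152% of all genes (2 genes, and 1 to 16 when single libraries were left out, with 16 without PARP1CKO replicate 1), and 0 of 6 had an unadjusted p under 0.05, against 7.69% of all genes. Fcgr2b had such a p without PARP1CKO replicate 1 and with no filter on low counts, Fcgr1 without PARP1CKO replicate 2, and Fcer1g without PARP2 WT replicate 1, 1 of 6 each time. The differences not yet given were -0.04 for Fcgr3, 0.02 for Fcgr4 and -0.01 for Fcgrt on the log2 scale, with intervals that include 0. The 2 WT groups were compared likewise, although mouse line, litter and handling cannot be told apart between them. None of the 6 passed there (log2 differences from -0.18 to 0.10, adjusted p of edgeR's quasi-likelihood test from 0.336 to 0.872). The largest of these differences, -0.18 for Fcgr4 and -0.13 for Fcgrt, became -0.05 and -0.26 without PARP2 WT replicate 2 and -0.32 and -0.01 without replicate 1. In the same comparison 417 of all genes (3.16%) passed. That number depended on the libraries, with 85 genes called without PARP1 WT replicate 1, 167 without PARP2 WT replicate 1 and 146 without replicate 2. Again 0 of 6 had an unadjusted p under 0.05, against 18.9% of all genes. It was 1 of 6 with either PARP1CKO library left out (Fcgr1), without PARP2 WT replicate 1 or with the replicate block (Fcgr4), and without PARP2 WT replicate 2 (Fcgrt). DESeq2 and the likelihood-ratio test called 0 of 6. Both WT groups enter other comparisons of this section as controls.

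The balance of activating to inhibitory receptor was measured as the ratio of counts per kilobase within each library, which does not depend on scaling between libraries. Fcgr3 exceeded Fcgr2b by 29.5 and 35.4 times in PARP1 WT, 40.9 and 21.0 times in PARP1CKO, 40.4 and 32.4 times in PARP2 WT, and 45.1 and 42.4 times in PARP2CKO. The spread in PARP1CKO was the widest, and both PARP2CKO libraries lay above both of their controls. Fcgr1 exceeded Fcgr2b by 2.91 and 3.49 times in PARP1 WT and by 3.64 and 2.13 times in PARP1CKO. In the PARP2 line the Fcgr1 ratio was 4.02 and 3.29 in WT and 4.79 and 4.72 in CKO. The Fcgr4 ratio lay between 1.47 and 2.93 in the PARP1 line and between 1.73 and 2.92 in the PARP2 line, with overlapping groups in both. These ratios use the merged exons of each gene and are lower per kilobase of principal transcript. There the Fcgr3 ratio ran from 16.6 to 35.5, the Fcgr1 ratio from 1.3 to 2.93 and the Fcgr4 ratio from 0.901 in PARP1CKO replicate 2, below Fcgr2b, to 1.79, while the differences between groups stayed the same for each single ratio.

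On the log2 scale the sum of the 3 activating receptors over Fcgr2b was higher by 0.29 in PARP2CKO than in PARP2 WT (exact two-sided permutation test, p = 0.333), by 0.12 without PARP2 WT replicate 2 and by 0.45 without replicate 1. That p is the smallest p that 2 against 2 libraries allow, so that the test could not reach 0.05. In PARP1CKO the same ratio differed by -0.14 (exact permutation p = 1.0) and turned to 0.33 without replicate 2. The ratio of Fcer1g to the 3 activating receptors was 3.25 and 3.58 in PARP2 WT, against 3.04 and 3.16 in PARP2CKO, a log2 difference of -0.14 (exact permutation p = 0.333) that was -0.07 without PARP2 WT replicate 2 and -0.21 without replicate 1. In the PARP1 line it lay between 3.52 and 3.74 with overlapping groups.

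**Figure D4:**
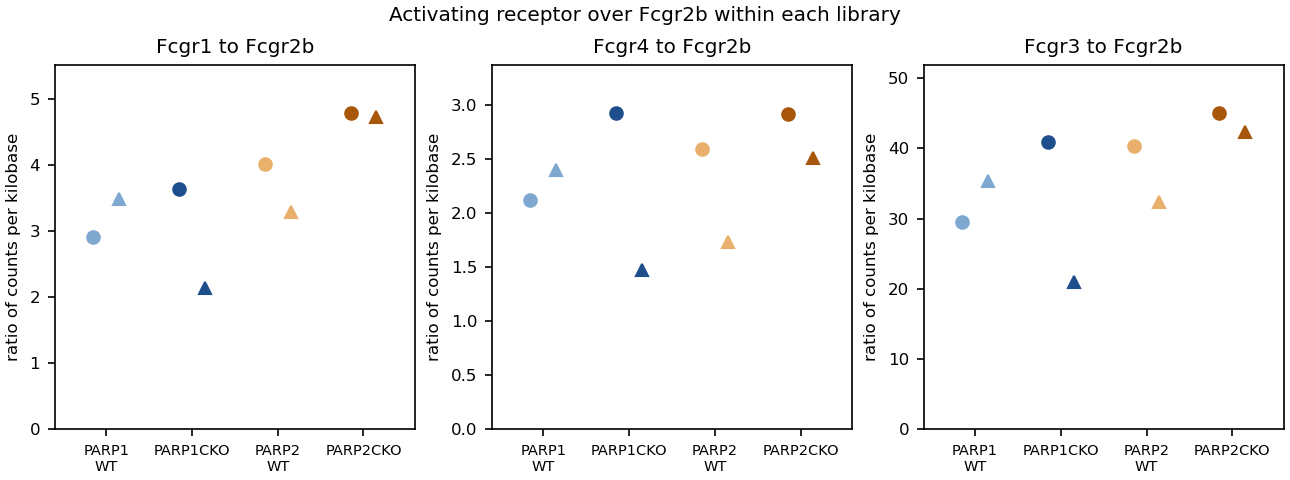
Ratio of counts per kilobase of Fcgr1, Fcgr4 and Fcgr3 to Fcgr2b within each library (vertical axes, from 0), by group, with circles for replicate 1 and triangles for replicate 2. The PARP2CKO libraries reach 45.1 and 42.4 for Fcgr3, and PARP1CKO replicate 2 is lowest in all 3 panels, at 21.0 for Fcgr3.

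Genes that carry the signal onward from the receptors were described as lists. Of 30 genes of activating signalling, 14 were higher and 16 lower in PARP1CKO and 15 were higher and 15 lower in PARP2CKO, with medians of -0.01 and -0.0012 beside 0.01 and -0.0014 over all genes. None was called, and 2 and 0 had an unadjusted p under 0.05. Syk, the kinase that binds the phosphorylated chain, had 320 and 318 CPM in PARP1 WT, against 299 and 294 CPM in PARP1CKO (log2 fold change -0.10, edgeR unadjusted p = 0.0339). Pik3cb, a catalytic subunit of PI3-kinase, differed by -0.13 in PARP1CKO (edgeR unadjusted p = 0.00713). In PARP2CKO the smallest p-values were those of the adaptor Lcp2, at -0.13 (edgeR unadjusted p = 0.0827), and the GTPase Rac2, at -0.07 (edgeR unadjusted p = 0.161).

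Of 10 genes of inhibitory signalling, 7 were higher in PARP1CKO (median 0.02) and 6 in PARP2CKO (median 0.01), none was called, and 2 and 1 had an unadjusted p under 0.05. The lipid phosphatase gene Inppl1 had 127 and 128 CPM in PARP1 WT, against 163 and 145 CPM in PARP1CKO (log2 fold change 0.27, edgeR unadjusted p = 0.00199), and the adaptor Dok3 differed by 0.23 (edgeR unadjusted p = 0.00798). Both PARP1CKO libraries of Inppl1 and Dok3 were above both controls. In PARP2CKO Dok2 differed by -0.13 (edgeR unadjusted p = 0.0475) and Dok1 by 0.09 (edgeR unadjusted p = 0.122).

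Tyrobp, the other ITAM chain of myeloid cells, had 550 and 561 CPM in PARP1 WT, against 577 and 564 CPM in PARP1CKO, and 608 and 574 CPM in PARP2 WT, against 647 and 622 CPM in PARP2CKO. Its log2 fold change in PARP2CKO was 0.10 (edgeR unadjusted p = 0.0524), where that of Fcer1g was -0.09. Of the 9 tested ITAM chains and chain partners 6 were higher in PARP1CKO (median 0.04) and 4 in PARP2CKO (median -0.05), none was called, and 1 and 0 had an unadjusted p under 0.05. Clec4e, a lectin that signals through the Fcer1g chain, differed by -0.30 in PARP1CKO (edgeR unadjusted p = 0.0386), and Hcst, an adaptor without an ITAM, by 0.34 (edgeR unadjusted p = 0.0565). Clec4d, a lectin of the same family, differed by 0.14 in PARP2CKO (edgeR unadjusted p = 0.0647).

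Other Fc receptors and related genes were scarce, at a sum of 56.8 to 92.0 CPM. Of 6 tested, 2 were higher in PARP1CKO (median -0.14) and 1 in PARP2CKO (median -0.12). None was called or had an unadjusted p under 0.05, and Fcamr, a receptor for IgM and IgA, had 0 counts in all 8 libraries. Fcrla and Fcrl1, known from B cells, differed by 0.56 and -0.15 in PARP1CKO (edgeR unadjusted p = 0.0617 and 0.0924). Faim3, an older name of the IgM receptor Fcmr, differed by -0.33 and Fcrls by 0.24 in PARP2CKO (edgeR unadjusted p = 0.186 and 0.233).

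Of 7 transcription factors known to act on Fc receptor genes, all 7 were higher in PARP1CKO, with a median of 0.10, and 4 in PARP2CKO, with a median of 0.0012. None was called, and 1 and 2 had an unadjusted p under 0.05. Spi1, which encodes PU.1, had 182 and 202 CPM in PARP1 WT, against 212 and 201 CPM in PARP1CKO (log2 fold change 0.11, edgeR unadjusted p = 0.101), so that the groups overlapped. Irf8 differed by 0.10 in PARP1CKO (edgeR unadjusted p = 0.0413). In PARP2CKO Cebpa, the gene of a C/EBP factor, had 76.0 and 67.8 CPM against 59.5 and 56.6 CPM in PARP2 WT (log2 fold change 0.31, edgeR unadjusted p = 0.015).

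Markers of the cell types that the cultures could hold were set beside the receptors, and none of their genes was called in either knockout comparison. Macrophage markers summed to 7733 and 7729 CPM in PARP2 WT, against 8492 and 8050 CPM in PARP2CKO, so that both PARP2CKO libraries lay above both controls. The sums were 7555 and 7841 CPM in PARP1 WT, against 8087 and 7357 CPM in PARP1CKO, which overlapped. Of these markers, 5 of 9 were higher in each knockout (medians 0.0046 and 0.03). Mertk, a receptor for dying cells, differed by 0.29 in PARP2CKO (edgeR unadjusted p = 0.0117), where Fcgr1 differed by 0.15. Monocyte markers were lower for 6 of 7 genes in each knockout (medians -0.18 and -0.10). Their sum was 1218.3 and 1288.0 CPM in PARP1 WT, against 1132.5 and 1204.5 CPM in PARP1CKO. In the PARP2 line the sums overlapped, at 1320.5 and 1321.7 CPM in WT and 1366.7 and 1290.0 CPM in CKO. Ccr2 differed by -0.34 in PARP1CKO (edgeR unadjusted p = 0.00902) and Ly6c2 by -0.24 in PARP2CKO (edgeR unadjusted p = 0.00351). Neutrophil markers were lower for 5 of 9 genes in PARP1CKO and for 8 of 9 in PARP2CKO. In PARP1CKO the smallest p was that of Camp, an antimicrobial peptide gene, which was higher by 0.29 (edgeR unadjusted p = 0.0271). In PARP2CKO Retnlg differed by -0.61 and Mmp9 by -0.43 (edgeR unadjusted p = 0.000619 and 0.00183), and Mmp9 also stands in the osteoclast list. The neutrophil markers summed to 3302 and 3077 CPM in PARP2 WT, against 3046 and 2682 CPM in PARP2CKO. Granulocyte progenitor markers were lower for 4 of 5 genes in PARP1CKO and 3 of 5 in PARP2CKO, dendritic cell markers for 5 of 6 and 3 of 6, and osteoclast markers for 2 of 6 and 3 of 6. The medians of these lists were -0.07 and -0.05, -0.22 and -0.07, and 0.07 and 0.12. Erythroid markers summed to 1.49 to 6.48 CPM, with medians of 0.59 in PARP1CKO and -0.52 in PARP2CKO over 4 tested genes, and the 2 tested genes of T and NK cells had medians of 0.52 and 0.35. Between 0 and 3 genes of each marker list had an unadjusted p under 0.05 in a comparison. The part of such shifts in the receptor levels was not tested.

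The receptor cluster of chromosome 1 lies next to a stretch where the PARP2 groups differed. In the 5 Mb of that chromosome that begin at 170 Mb, 17 of 62 tested genes (27.4%) had an unadjusted p under 0.05 in PARP2CKO against PARP2 WT, compared with 44 of 671 (6.56%) on the rest of the chromosome. Of these, 2, Slamf7 and Ifi202b, passed an adjusted p of 0.05. Both genes were already named when the window was set, so the shares in the window and in its parts are only a description. All 17 began beyond the end of Fcer1g, the first of them Alyref2, at a distance of 269 kb. Of the 18 tested genes that began before that end, Fcgr2b, Fcgr4, Fcgr3 and Fcer1g among them, 0 had such a p in this comparison. Slamf7, a receptor of the SLAM family 398 kb from Fcer1g, had 94.1 and 88.8 CPM in PARP2 WT, against 139 and 132 CPM in PARP2CKO (edgeR adjusted p = 0.00828). Ifi202b, an interferon-inducible gene 2.73 Mb away, was counted 1150 and 1028 times in the PARP2 WT libraries and was at 0 counts in PARP2CKO. The PARP1 line was likewise at 0 counts of Ifi202b apart from 13 in PARP1CKO replicate 2, so that the PARP2 WT libraries stood apart from the other 6. For Slamf7 the PARP1 line had 118.4 to 144.2 CPM, and PARP2 WT was the group apart here too, at lower levels (log2 difference from PARP1 WT -0.43, edgeR adjusted p = 0.00556). In PARP1CKO against PARP1 WT, 4 of 62 genes of the window (6.45%) had an unadjusted p under 0.05, against 13.6% of the rest of the chromosome. Between the WT groups it was 24 of 62 (38.7%), against 20.9%. Of the 18 genes that began before the end of Fcer1g, 4 had such a p between the WT groups, and Fcrla, 41 kb from Fcgr2b, was called there (log2 difference -1.62, edgeR adjusted p = 0.029). In the PARP1 line 2 of the 18 did, Sh2d1b1 and Pcp4l1, and Pcp4l1, which lies between Fcgr3 and Fcer1g, differed by 0.37 (edgeR unadjusted p = 0.00286, adjusted p = 0.257). Genotype around the cluster was not analysed here.

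**Figure D5:**
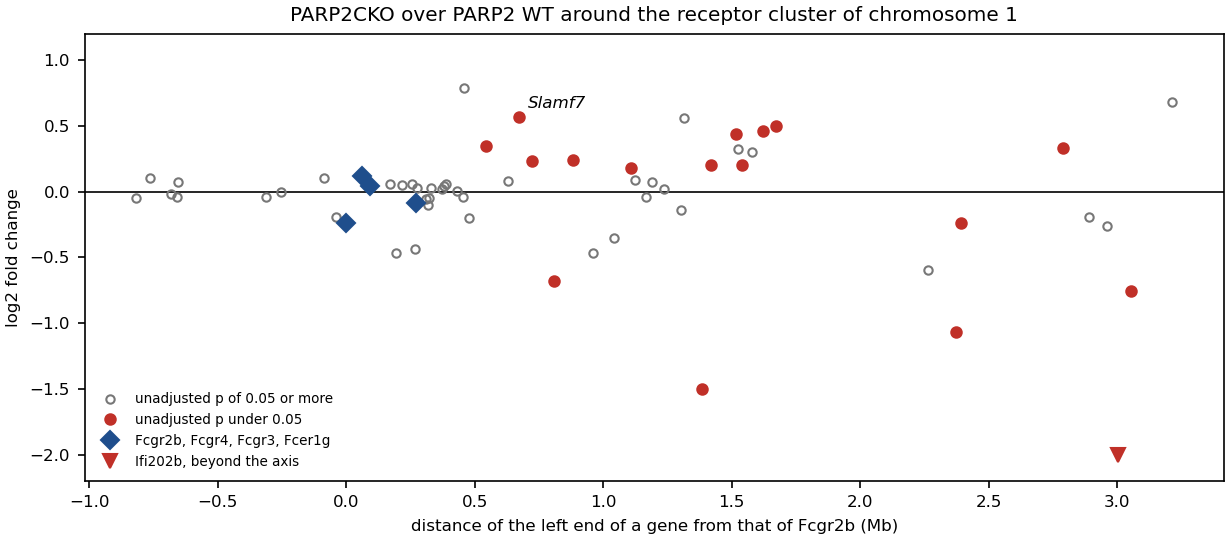
Log2 fold change of PARP2CKO over PARP2 WT (vertical axis) for the 62 tested genes in the 5 Mb of chromosome 1 from 170 Mb on, by distance in Mb from the left end of Fcgr2b (horizontal axis), with diamonds for the 4 genes of the receptor cluster, filled circles for an unadjusted p under 0.05, open circles for other genes and a triangle for Ifi202b, drawn at the edge of the axis. The diamonds lie between -0.24 and 0.12, and the 17 genes with an unadjusted p under 0.05 are all to the right of them.

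For each of the 6 genes the 3 most alike profiles were sought by Pearson's r of log2 CPM over the 8 libraries, among 8673 genes with a mean of at least 10 CPM. These correlations describe 8 libraries that share line, genotype and culture, and none of the most alike genes was another of the 6. Being the highest of 8673 candidates over 8 libraries, they are high by the choice itself. Whether unrelated genes would reach such values was not tested. For Fcgr1 they were Hsdl1 (r = 0.961), Mpeg1, which encodes the pore-forming perforin-2 of macrophages (r = 0.96), and 1110008F13Rik (r = 0.957). For Fcgr2b they were Gss, a glutathione synthesis enzyme (r = 0.973), Mtmr3 (r = 0.956) and Plcl2 (r = 0.948), with r of 0.902, 0.835 and 0.831 over the 7 libraries without PARP1CKO replicate 2. Those of Fcgr3 were Yif1a, Nt5dc3 and Ndufb7 (r from 0.958 to 0.966), and those of Fcgr4 were Gstm1, Cox15 and Aurkb (r from 0.925 to 0.973). The profile of Fcer1g was most like those of Mars, Tor1aip2 and Slc30a7 (r from 0.969 to 0.977), and that of Fcgrt most like those of Limk2, Pik3ca and Hsd17b4 (r from 0.887 to 0.95). Without PARP2 WT replicate 1 the r of Fcgrt with Hsd17b4 was 0.734, and without PARP2 WT replicate 2 that of Fcgr4 with Aurkb was 0.802.

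Fcgr2b had the widest and Fcgr3 the narrowest spread of the 6 genes over all libraries. The SD of log2 CPM over the 8 libraries was 0.34 for Fcgr2b, larger than for 98.0% of genes with a mean of at least 10 CPM, and 0.05 for Fcgr3, smaller than for 79.7% of them. For Fcgr2b 1 library carried much of this, since without PARP1CKO replicate 2 its SD was 0.19, larger than for 93.8% of those genes. Over the 8 libraries the SD was 0.08 for Fcer1g, 0.11 for Fcgr1, 0.12 for Fcgrt and 0.14 for Fcgr4. That of Fcgrt was 0.07 without PARP2 WT replicate 1, and that of Fcgr4 was 0.09 without PARP2 WT replicate 2.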

How the data were processed

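Total RNA libraries (TruSeq Stranded, 4 µg RNA) were sequenced as single-end reads of 75 bases. Per the study's methods and processing notes, the authors checked reads with FastQC 0.11.2, trimmed them, aligned them to mm10 with TopHat 2.0.12, marked duplicates with Picard 1.127 and counted reads per gene with featureCounts. The deposited values are these raw counts. The annotation, the strand setting and the use of marked duplicates are not given in the sources used here.

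The 6 genes, all lists and the window on chromosome 1 were chosen with earlier results of these data known. Counts were filtered with filterByExpr, scaled with TMM and tested with edgeR 4.0.16 (R 4.3.3; quasi-likelihood test, all 8 libraries, 1 mean per group, Benjamini-Hochberg adjustment, threshold 0.05), after a test on simulated data. Of 24062 genes, 6520 had no count. Log2 CPM used a prior count of 2. All 6 genes were named, and from each list genes among the 2 with the smallest p in a knockout comparison; Cd3e, Csf1r, Itgam and S100a8 were named as defining markers. Exact permutation tests used scipy. Alternatives were other size factors, tools (DESeq2 1.42.0), filters, a replicate block and leaving out each library. Pairing by replicate number was checked over 13197 genes.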

Additional observations from a re-analysis of the deposited data

How the results depend on the processing

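None of the 6 genes was called in any comparison under any alternative run, over 384 adjusted p-values, of which the smallest was 0.129 (edgeR's quasi-likelihood test). With the replicate block the number called was 0 in all 4 comparisons. Same-numbered libraries deviated from their group means with r = -0.133 in the PARP1 line and 0.147 in the PARP2 line. These values differ in sign, and the sample labels give no tie beyond the number. The block moved the count over all genes from 14 to 17 and from 7 to 11, and a crossed pairing in the PARP1 line, added after seeing the data, gave 46. DESeq2 called 86 and 27 genes, the likelihood-ratio test 146 and 39, and a fit with no filter on low counts 101 and 26. For the difference between effects the count over all genes went from 2 to 45 with DESeq2, 72 with the likelihood-ratio test and 61 with no filter. Between the WT groups the count over all genes went from 417 to 315 with the block, 551 with DESeq2, 910 with the likelihood-ratio test and 872 with no filter, and leaving out 1 library gave 85 to 566. With library size alone Fcgr4 differed between the effects by -0.003. Leaving out 1 library turned some directions. Log2 fold changes in PARP1CKO then ran from -0.05 to 0.08 for Fcgr1, from -0.24 to 0.66 for Fcgr2b, from 0.05 to 0.10 for Fcgr3, from 0.03 to 0.15 for Fcgr4, from 0.02 to 0.07 for Fcer1g and from 0.03 to 0.18 for Fcgrt. In PARP2CKO they ran from -0.01 to 0.26 for Fcgr4, from -0.38 to -0.08 for Fcgr2b, from -0.14 to -0.03 for Fcer1g and from -0.03 to 0.22 for Fcgrt. The log2 ratio to Fcgr2b in PARP2CKO ran from 0.24 to 0.53 for Fcgr1, 0.11 to 0.43 for Fcgr3 and 0.06 to 0.64 for Fcgr4. Differences between effects ran from 0.07 to 0.20 for Fcgr1, -0.91 to 0.0034 for Fcgr2b, -0.06 to -0.01 for Fcgr3, -0.19 to -0.08 for Fcer1g, -0.11 to 0.17 for Fcgr4 and -0.13 to 0.12 for Fcgrt, and those between WT groups from -0.25 to 0.06 for Fcgr2b, -0.32 to -0.05 for Fcgr4, -0.26 to -0.01 for Fcgrt and -0.11 to 0.0024 for Fcer1g. In PARP1CKO the log2 ratio to Fcgr2b ran from -0.58 to 0.19 for Fcgr1, -0.62 to 0.34 for Fcgr3, -0.62 to 0.38 for Fcgr4 and -0.62 to 0.33 for their sum, and that of Fcer1g to the sum from -0.07 to 0.02. Principal transcript lengths were also tried after seeing the data. They cannot change the difference between groups in a ratio of single genes, since a fixed length scales all libraries alike. In the ratios with a sum, they turned the sign of no such difference. With them the Fcgr4 ratio in PARP1CKO replicate 2 was 0.901, below Fcgr2b, where merged exons gave 1.47. In PARP1CKO the sign for Fcgr2b and its ratios turned without replicate 2. The cause was not tested.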
